A study of Mus musculus with 14 samples.

Results

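The genes described here are the 42 genes of glucose uptake, glycolysis, pyruvate handling and the pentose phosphate pathway, followed through glucose and amino acid starvation of mouse embryonic fibroblasts (MEFs, connective-tissue cells grown from embryos). They were chosen as a list of gene symbols, and each symbol was represented by the transcript entry with the most reads over the 14 libraries. All 42 were found among the 40800 genes of the table, and all 42 passed the filter on low counts, as did 17696 genes in all.

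Bulk RNA sequencing compared cells kept without glucose for 3, 6 or 12 h, cells kept without amino acids for 3, 6 or 12 h, and control cells with no starvation (0 h), with 2 libraries in each of the 7 groups. The starved cells had been grown in high-glucose DMEM with fetal bovine serum, were washed, and then received DMEM lacking the nutrient, with dialyzed serum. The control was frozen in ordinary serum and the starved cells in dialyzed serum. No unstarved cells were sampled at 3, 6 or 12 h. Washing, the new medium, dialyzed serum and the hours in culture therefore cannot be told apart from starvation in a comparison with the control. Both starvations shared them at each time. The line's strain and genotype are not given in the sources used here. Nor is it stated there that a group's 2 libraries are separate cultures, so the p-values rest on a spread between libraries that may be technical. That spread is pooled over the 7 groups, and it was unequal. Between a group's 2 libraries, the spread relative to counting noise (chi-square per degree of freedom) was 14.6 in the control and 12.7 at 3 h without glucose. In the other groups it was 3.45 to 8.27. A pooled spread can understate the error of comparisons with the more variable groups.

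Glycolysis splits 1 glucose into pyruvate in the cytosol, after hexokinase has trapped the sugar and phosphofructokinase has committed it to the pathway. Pyruvate is then reduced to lactate and exported, or carried into mitochondria and oxidized by the pyruvate dehydrogenase complex, which a family of kinases switches off by phosphorylation. The pentose phosphate pathway branches off at glucose 6-phosphate, and its oxidative arm makes NADPH while its non-oxidative arm interconverts sugar phosphates and supplies ribose for nucleotides. Cultured fibroblasts are known to take up glucose through GLUT1 and to release much of it as lactate.

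The libraries held 35270751 to 55349673 reads over 1 transcript entry per gene. Levels are counts-per-million values (CPM) with totals scaled by the trimmed mean of M-values (TMM), and a change was called at an adjusted p under 0.05 in edgeR's quasi-likelihood test with Benjamini-Hochberg adjustment over all genes tested. The 13 fibroblast markers summed to 9135 and 8909, 8180 and 8104, and 5422 and 5469 CPM after 3, 6 and 12 h without glucose. They summed to 7598 and 7313, 5098 and 4976, and 2447 and 2244 CPM after 3, 6 and 12 h without amino acids, and to 8268 and 7493 CPM in the control. Of the 13, 1 was at 0 in all 14 libraries and 3 to 5 stayed under 1 CPM in each group, so the sums rest on the others. At 3 h without glucose, 5 of 11 tested markers were called higher and 4 lower (all genes 20.3% and 23.1%). At 12 h without amino acids, 1 was higher and 8 lower (all genes 34.9% and 32.0%). The marker sums fell at 6 and 12 h without amino acids, where many of the 42 genes fell. These sums also fell at 12 h without glucose, where 17 of the 42 genes were called higher and 14 lower. Their part in the results was not tested. In bulk RNA, fewer cells of a type and less RNA per cell cannot be told apart. The 7 macrophage markers summed to 17.9 to 27.8 CPM with 2 at 0 throughout, and the 5 neural markers to 17.1 to 32.3 CPM. The 5 endothelial markers summed to 14.1 to 25.5 CPM in starved cells, against 4.43 and 5.26 CPM in the control. In each group 3 or 4 of these 5 stayed under 1 CPM, so the sum rests on the few others. The muscle, adipocyte, epithelial and erythroid lists reached at most 6.29, 0.832, 0.455 and 1.07 CPM. The exons of 17 of the 42 genes overlap another annotated gene (GENCODE M21, GRCm38): Slc2a1, Hk1, Gpi1, Pfkm, Pfkp, Aldoa, Tpi1, Pfkfb1, Pfkfb2, Gapdh, Pkm, Mpc1, Pdha1, G6pdx, Pgls, Tkt and Rpe. Whether reads were counted by strand is not given in the sources used here, so some reads of these genes may belong to the overlapping gene.

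The 42 genes moved apart between the starvations. After 12 h without glucose, 17 were higher and 14 lower than in the control (31 of 42). Of all genes tested, 58.4% were called, 30.4% as higher and 28.0% as lower. Without the first 12 h glucose library, 9 genes were lower. The 42 genes had a median log2 fold change of 0.14 and all genes one of 0.01. After 12 h without amino acids, 7 were higher and 30 lower (background 66.9% called, 34.9% as higher and 32.0% as lower), with medians of -0.49 and 0.06. Direct comparison at 12 h called 34 of the 42 genes higher and 4 lower without glucose than without amino acids, where 31.6% of all genes were called higher, 32.5% lower and 64.1% either way. The medians of that difference were 0.66 over the 42 genes and -0.03 over all genes.

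**Figure D1:**
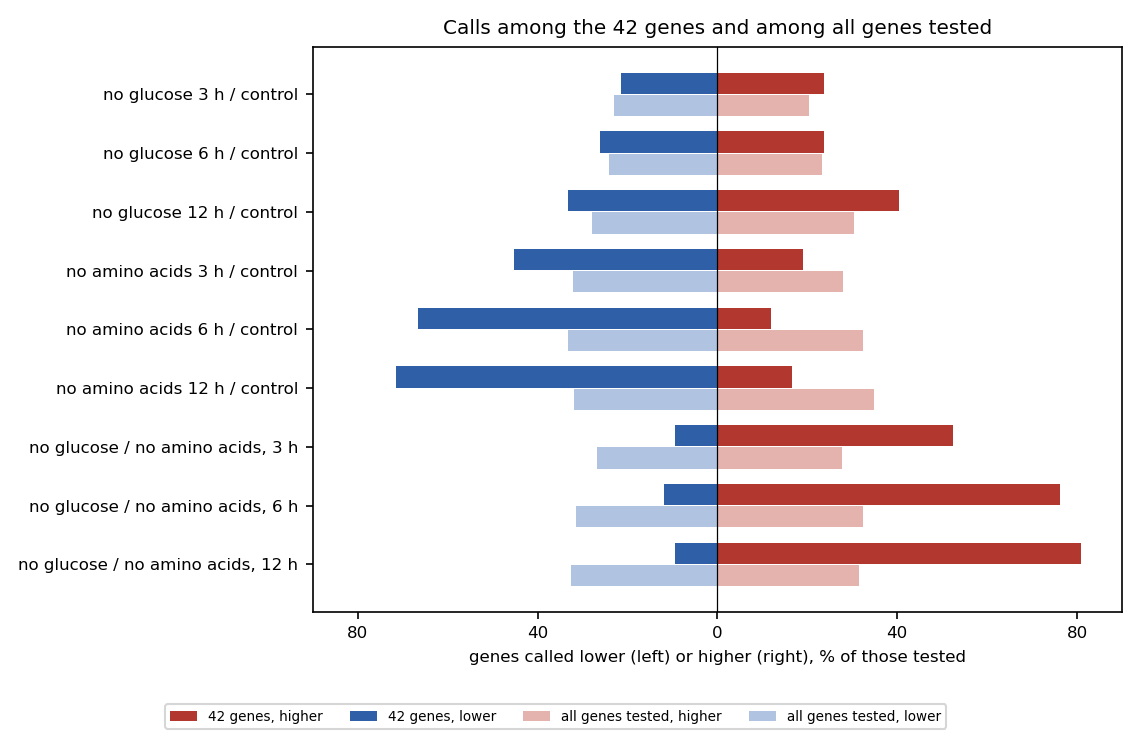
Percentage of genes called higher (right, red) or lower (left, blue) at an adjusted p under 0.05 in each comparison, for the 42 genes (dark bars) and for all 17696 genes tested (pale bars). The dark red bars of the 3 glucose against amino acid comparisons reach past the pale ones, and at 12 h they stand for 34 of 42 genes against 31.6% of all genes.

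At earlier times fewer of the 42 genes were called and their medians were smaller. Single genes could still change most at 3 h, as did Hk2 in both starvations and Pdk4 without amino acids. Without glucose, 10 genes were higher and 9 lower than in the control at 3 h (background 43.3%, 20.3% as higher and 23.1% as lower). At 6 h, 10 were higher and 11 lower (background 47.5%, 23.3% and 24.2%). Both shares were close to those of all genes. Without amino acids, 8 were higher and 19 lower at 3 h (background 60.0%, 27.9% as higher and 32.1% as lower). At 6 h, 5 were higher and 28 lower, where 32.3% of all genes were called higher, 33.3% lower and 65.6% either way. The median over the 42 genes was -0.14 at 3 h and -0.40 at 6 h without amino acids, against -0.07 and -0.01 over all genes. These comparisons share the 2 control libraries.

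The split into higher and lower genes depended on the scaling at the early times, and without glucose also at 12 h. With library totals in place of TMM, the median log2 change of all genes moved to between -0.27 and 0.35 over the 12 comparisons, and the calls without glucose became 6 higher and 20 lower at 3 h, 7 and 19 at 6 h, and 13 and 16 at 12 h. Without amino acids at 3 h they became 4 higher and 28 lower, while at 12 h they were 8 and 26, beside a median of all genes of 0.19. The direct 12 h comparison then called 27 higher and 4 lower, with a median of 0.42 over the 42 genes against -0.27 over all genes. A correction for GC content and transcript length, chosen after seeing the data, gave 16 higher and 16 lower at 3 h and 11 and 24 at 6 h without amino acids, and 19 higher and 9 lower at 3 h without glucose.

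**Figure D2:**
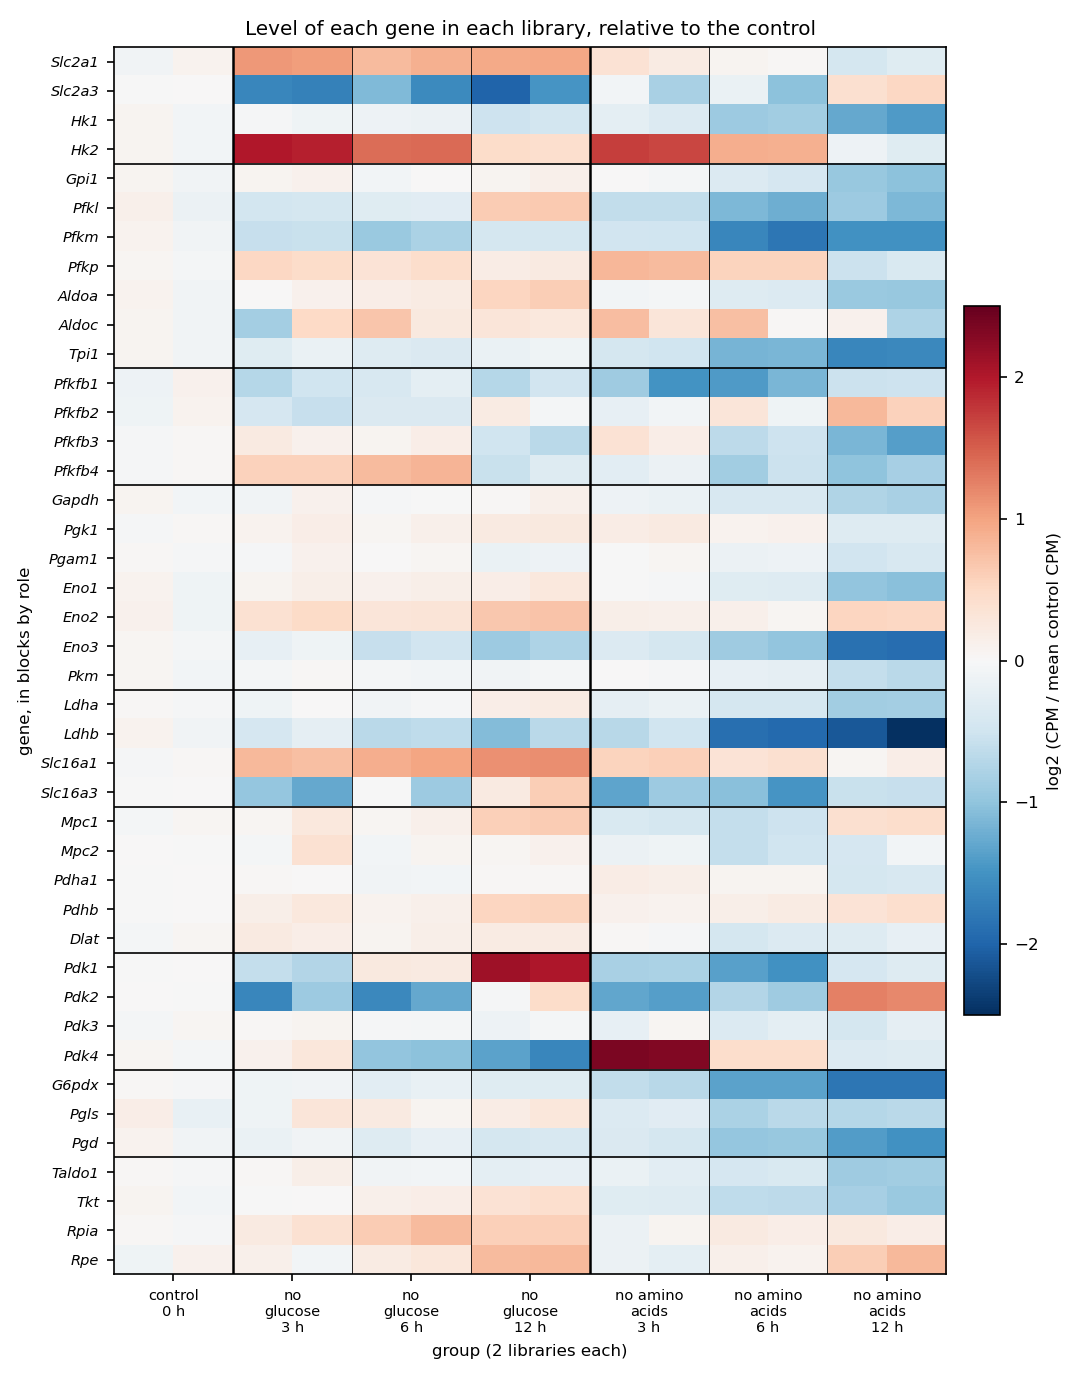
Level of each of the 42 genes in each of the 14 libraries, as log2 of its CPM over the mean control CPM (red above, blue below), with genes in blocks by role and groups from left to right. Slc2a1, Hk2 and Slc16a1 are red without glucose, most genes turn blue by 12 h without amino acids, and Pdk1, Pdk2 and Pdk4 each stand out in a different group.

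Of the 4 genes of glucose uptake and trapping, Slc2a1 and Hk2 rose at 3 h of both starvations. Slc2a1, which encodes GLUT1, the main glucose carrier of fibroblasts, had 56.95 and 64.9 CPM at 0 h, 129.7 and 126 CPM at 3 h, 106 and 113 CPM at 6 h and 117 and 119 CPM at 12 h without glucose. Slc2a1 had 78.3 and 70.4 CPM at 3 h, 63.6 and 62.1 CPM at 6 h and 45.1 and 49.6 CPM at 12 h without amino acids. All 6 glucose-starved libraries lay above the control and above every amino acid-starved library, and the 12 h libraries without amino acids lay below the control. The changes against the control were called at 3 h (log2 fold change 1.07, SE 0.068, adjusted p = 1.26e-13) and 12 h (log2 fold change 0.95, SE 0.067, adjusted p = 5.2e-13) without glucose, and in both directions without amino acids, with log2 fold changes of 0.29 at 3 h (adjusted p = 0.000569) and -0.36 at 12 h (adjusted p = 3.15e-05). Slc2a3, the high-affinity carrier GLUT3, was scarce, at 0.186 to 0.345 CPM in the 6 libraries without glucose, 0.363 to 1.06 CPM in the 6 without amino acids, and 0.741 and 0.745 CPM in the control. It was called lower without glucose at 12 h (log2 fold change -1.73, SE 0.52, adjusted p = 0.00493), from counts that were 8 to 56 reads over the 14 libraries. All 14 counts were even, so they may not be single reads, and the test takes them as such.

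Hexokinase 2 had the larger 3 h increase in both starvations. Hk2, the inducible hexokinase, had 45.6 and 41.2 CPM at 0 h, 174 and 166 CPM at 3 h, 114 and 116 CPM at 6 h and 59.3 and 58.1 CPM at 12 h without glucose. Hk2 had 144 and 138 CPM at 3 h, 81.5 and 79.9 CPM at 6 h and 39.7 and 34.95 CPM at 12 h without amino acids. Both starvations peaked at 3 h and declined afterwards, and only the 12 h libraries without amino acids ended below both control libraries. The log2 fold changes at 3 h were 1.97 (SE 0.065, adjusted p = 3.28e-20) without glucose and 1.70 (SE 0.065, adjusted p = 3.14e-19) without amino acids. The direct difference between the starvations was 0.27 at 3 h, 0.52 at 6 h and 0.65 at 12 h, each called. Hk1, the constitutive hexokinase, did not share the peak. It had 133 and 139 CPM at 12 h without glucose and 79.3 and 71.8 CPM at 12 h without amino acids, against 200.3 and 182 CPM in the control. Both decreases were called (log2 fold changes -0.49 and -1.34, adjusted p = 4.72e-08 and 1.34e-17).

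Shares of a family's summed level per transcript length do not depend on the scaling between libraries. Hk2 made up 14.96 ± 0.061% of hexokinase (Hk1 plus Hk2; mean ± SD, n = 2, as for the shares that follow) in the control, then 41.96 ± 0.041% at 3 h, 33.9 ± 0.53% at 6 h and 25.1 ± 0.85% at 12 h without glucose. Without amino acids it made up 41.2 ± 0.52%, 37.8 ± 0.71% and 27.7 ± 0.40% at the same times. In both starvations Hk1 remained the larger part.

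**Figure D3:**
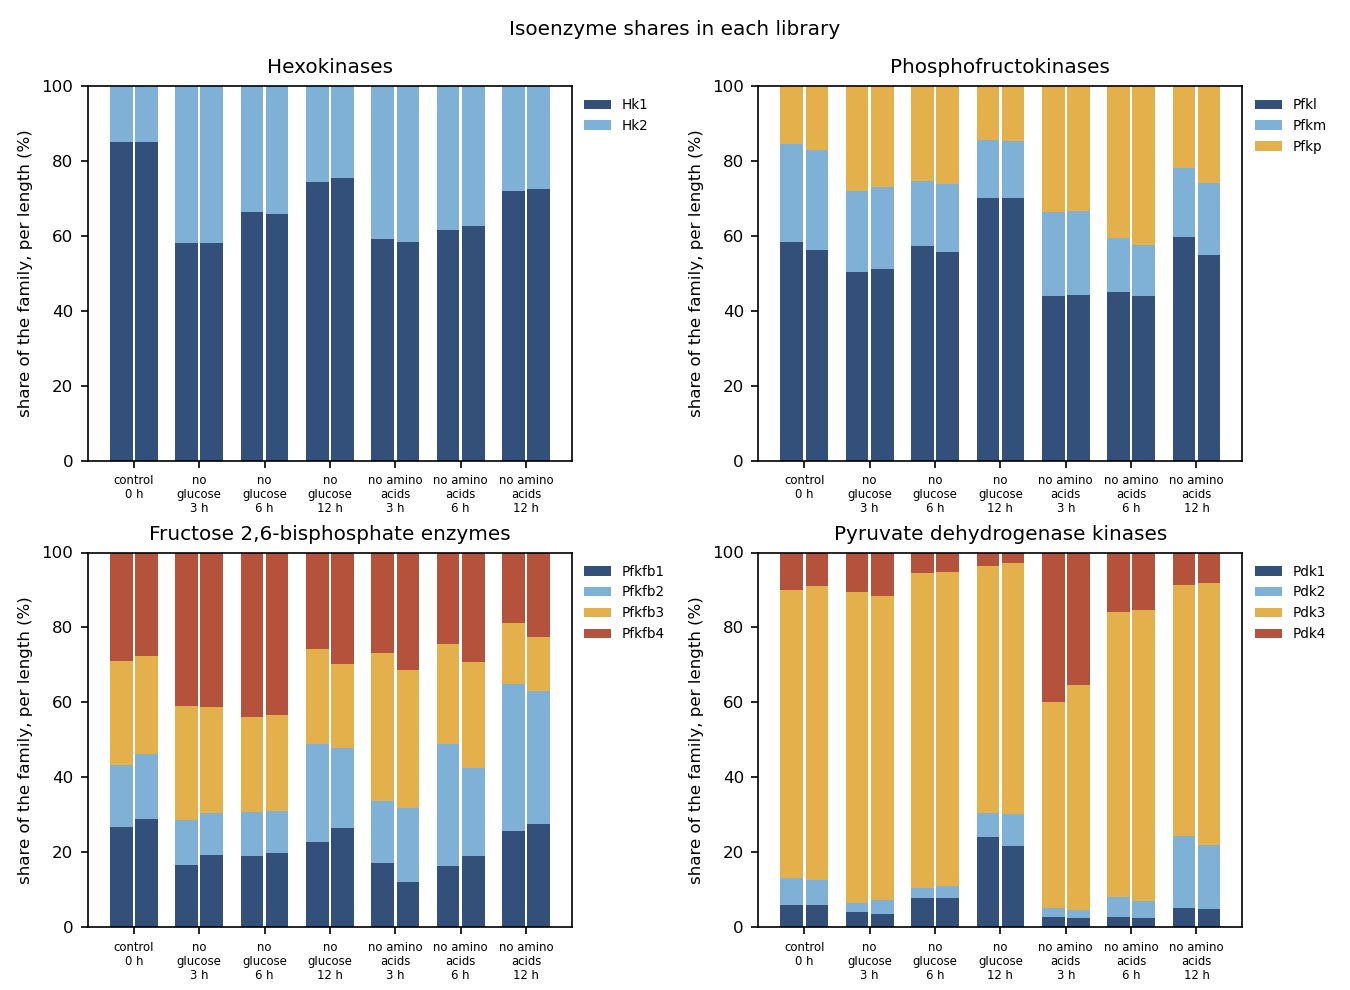
Share of each isoenzyme in its family's summed level per transcript length (%), 1 bar a library and 2 a group, for hexokinases, phosphofructokinases, fructose 2,6-bisphosphate enzymes and pyruvate dehydrogenase kinases. Hk2 is widest at 3 h of both starvations, Pfkp at 6 h without amino acids, Pdk4 at 3 h without amino acids, Pdk1 at 12 h without glucose and Pdk2 at 12 h without amino acids.

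Of the 7 genes from hexose phosphate to triose phosphate, Pfkl and Aldoa differed most between the starvations at 12 h. Pfkl, the liver-type phosphofructokinase subunit, had 205 and 170.1 CPM at 0 h, 136 and 138 CPM at 3 h, 152 and 153 CPM at 6 h and 291 and 295 CPM at 12 h without glucose. Pfkl had 122 and 123 CPM at 3 h, 86.1 and 80.8 CPM at 6 h and 99.3 and 86.6 CPM at 12 h without amino acids. The 3 h libraries of both starvations lay below the control, and by 12 h the glucose-starved libraries were the highest of all 14 and the amino acid-starved ones stayed below the control. The change at 12 h was called without glucose (log2 fold change 0.64, SE 0.068, adjusted p = 3.82e-09) and without amino acids (log2 fold change -1.01, SE 0.070, adjusted p = 2.89e-13). The direct difference was 1.66 (SE 0.070, adjusted p = 7.82e-18).

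Aldoa, the main aldolase, which cleaves fructose 1,6-bisphosphate, followed a similar course. It had 497 and 443 CPM at 0 h, 471 and 503 CPM at 3 h, 528 and 541 CPM at 6 h and 681 and 723 CPM at 12 h without glucose. Aldoa had 449.7 and 452 CPM at 3 h, 377 and 371 CPM at 6 h and 248 and 245 CPM at 12 h without amino acids. The 12 h libraries lay above the control without glucose (log2 fold change 0.58, SE 0.056, adjusted p = 5.19e-10) and below it without amino acids (log2 fold change -0.93, SE 0.057, adjusted p = 1.08e-14), with no overlap. Tpi1, triose phosphate isomerase, fell to 185 and 187 CPM after 12 h without amino acids, against 601 and 540.0 CPM in the control (log2 fold change -1.62, SE 0.059, adjusted p = 5.31e-20). After 12 h without glucose it had 508 and 529.7 CPM, a small called decrease with a log2 fold change of -0.14 (adjusted p = 0.0415). Gpi1, which turns glucose 6-phosphate into fructose 6-phosphate, had 283 and 293 CPM without glucose and 139.7 and 133 CPM without amino acids at 12 h, against 285 and 255 CPM in the control. Its decrease without amino acids was called (log2 fold change -0.99, adjusted p = 3.82e-15), and its value without glucose lay above the control by 0.09 without passing the test (adjusted p = 0.167). Aldoc, the brain-type aldolase, stayed between 0.873 and 2.70 CPM in all 14 libraries and its share of aldolase per length was at most 0.314% in the group means.

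The 3 phosphofructokinase subunits changed places. Pfkp, the platelet-type subunit, had 83.8 and 81.1 CPM at 3 h without glucose and 104 and 102 CPM at 3 h without amino acids, against 60.5 and 57.1 CPM in the control. Its increase was called in both (0.49 and 0.81 on the log2 scale, adjusted p = 2.57e-07 and 3.5e-12). It was the only subunit of the 3 that was lower without glucose than without amino acids at 3 h by the test (log2 difference -0.33, adjusted p = 6.05e-05). Pfkm, the muscle-type subunit, fell at all 3 times of both starvations, and furthest at 6 h without amino acids, to 20.9 and 18.7 CPM against 68.99 and 61.5 CPM in the control (log2 fold change -1.72, SE 0.077, adjusted p = 1.15e-17).

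Per length, Pfkl made up 57.3 ± 1.6% of phosphofructokinase in the control, and 50.9 ± 0.50%, 56.6 ± 1.1% and 70.1 ± 0.023% at 3, 6 and 12 h without glucose. Without amino acids its share was 44.2 ± 0.29%, 44.5 ± 0.62% and 57.4 ± 3.5%. Pfkp made up 16.2 ± 1.0% in the control, 25.7 ± 0.42% at 6 h without glucose and 41.5 ± 1.3% at 6 h without amino acids, where its share came closest to that of Pfkl. By 12 h the share of Pfkp was 14.6 ± 0.11% without glucose and 23.9 ± 2.8% without amino acids.

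The Pfkfb genes encode bifunctional enzymes that make and break down fructose 2,6-bisphosphate, the strongest activator of phosphofructokinase. Pfkfb4 had 11.2 and 11.7 CPM at 0 h, 17.04 and 17.1 CPM at 3 h, 19.7 and 20.6 CPM at 6 h and 7.76 and 9.11 CPM at 12 h without glucose. Pfkfb4 had 9.50 and 10.4 CPM at 3 h, 6.28 and 7.85 CPM at 6 h and 5.69 and 6.48 CPM at 12 h without amino acids. It was above the control at 3 and 6 h without glucose and below it at 12 h, and all 3 differences were called (log2 fold changes 0.58, 0.82 and -0.45, adjusted p = 0.000171, 8.61e-07 and 0.00216). At 6 h the direct difference between glucose and amino acid starvation was 1.51 (SE 0.12, adjusted p = 4.99e-12). Pfkfb3, whose kinase activity dominates, was lower at 12 h in both starvations, with 10.4 and 9.35 CPM without glucose and 6.73 and 5.70 CPM without amino acids, against 14.5 and 15.1 CPM in the control (log2 fold changes -0.58 and -1.25, adjusted p = 5.71e-05 and 9.24e-11).

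Pfkfb2, the heart-type enzyme, went the other way. It had 9.99 and 8.34 CPM at 12 h without glucose and 15.1 and 12.9 CPM at 12 h without amino acids, against 8.05 and 9.22 CPM in the control. Its increase without amino acids was called (log2 fold change 0.69, SE 0.14, adjusted p = 4.94e-05), and it was lower without glucose than without amino acids at all 3 times. In the control its share of the family per length was 16.8 ± 0.51%, and at 12 h it was 23.8 ± 3.3% without glucose and 37.3 ± 2.8% without amino acids. Pfkfb1, the liver-type enzyme, was at 2.01 to 6.11 CPM, and its lowest group was 6 h without amino acids, at 2.10 and 2.54 CPM (log2 fold change -1.27, SE 0.20, adjusted p = 1.55e-06).

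Of the 7 genes from glyceraldehyde 3-phosphate to pyruvate, 6 were called lower after 12 h without amino acids, where 32.0% of all genes were. Gapdh, Pkm and Eno1 had the highest levels per length of the 42 genes, at 3258 ± 239, 1952 ± 123 and 1209 ± 121 TPM (transcripts-per-million values, mean ± SD, n = 2) in the control. Gapdh, glyceraldehyde 3-phosphate dehydrogenase, had 2467 and 2242 CPM at 0 h, 2218 and 2521 CPM at 3 h, 2311 and 2342 CPM at 6 h and 2405 and 2564 CPM at 12 h without glucose. Gapdh had 2166 and 2103 CPM at 3 h, 1772 and 1780 CPM at 6 h and 1400 and 1348 CPM at 12 h without amino acids. The glucose-starved libraries overlapped the control at every time, and the amino acid-starved ones lay below it at every time. The change without amino acids was -0.78 at 12 h (SE 0.060, adjusted p = 2.02e-12). At 3 h it was -0.14 (adjusted p = 0.0414), a decrease that turned into an increase of 0.12 with the GC and length correction. Pkm, pyruvate kinase, had 2260 and 2332 CPM at 12 h without glucose and 1602 and 1514 CPM at 12 h without amino acids, against 2514 and 2319 CPM in the control, and its decrease without amino acids was called (log2 fold change -0.63, SE 0.054, adjusted p = 1.74e-11).

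Phosphoglycerate kinase and mutase moved less. Pgk1, the first ATP-yielding enzyme of the pathway, had 829.5 and 840.4 CPM at 12 h without glucose and 568 and 567 CPM at 12 h without amino acids, against 701 and 727 CPM in the control (log2 fold changes 0.23 and -0.33, adjusted p = 0.000377 and 1.69e-06). Pgam1, phosphoglycerate mutase, was the only one of this role's 7 genes besides Eno3 that was called lower at 12 h in both starvations, with log2 fold changes of -0.15 without glucose (adjusted p = 0.0221) and -0.43 without amino acids (adjusted p = 4.11e-08).

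The 3 enolases, which make phosphoenolpyruvate, diverged. Eno1, the ubiquitous form, had 1407 and 1493 CPM at 12 h without glucose and 632 and 605 CPM at 12 h without amino acids, against 1331 and 1164 CPM in the control (0.22 and -1.01 on the log2 scale, adjusted p = 0.00207 and 3.39e-15). Its reads are uncertain, because the near-identical copy Eno1b is listed beside it with 798 and 852, 356 and 347 and 776 and 656 CPM in the same 3 groups. Eno2, the neuronal form, was higher at 12 h in both starvations, at 41.4 and 42.4 CPM without glucose and 37.8 and 37.2 CPM without amino acids, against 27.8 and 24.2 CPM in the control (log2 fold changes 0.69 and 0.53, adjusted p = 8.55e-09 and 6.35e-07). Eno3, the muscle form, fell in both, to 24.6 and 26.9 CPM without glucose and 12.7 and 12.4 CPM without amino acids, against 47.9 and 44.4 CPM in the control (log2 fold changes -0.84 and -1.88, adjusted p = 2.26e-10 and 5.14e-18).

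Of the 4 genes of lactate formation and transport, Ldha and Slc16a1 were called higher than the control at 12 h without glucose. Ldha, the lactate dehydrogenase subunit of glycolytic cells, had 806 and 773 CPM at 0 h, 729.7 and 797 CPM at 3 h, 745 and 775 CPM at 6 h and 882 and 914 CPM at 12 h without glucose. Ldha had 679.8 and 708 CPM at 3 h, 580.0 and 585 CPM at 6 h and 433 and 438 CPM at 12 h without amino acids. By 12 h it was above the control without glucose (log2 fold change 0.19, SE 0.054, adjusted p = 0.00384) and below it without amino acids (log2 fold change -0.86, SE 0.054, adjusted p = 2.27e-14). Ldhb, the heart-type subunit, had 3.53 and 4.70 CPM without glucose and 1.73 and 1.09 CPM without amino acids at 12 h, against 8.002 and 7.05 CPM in the control. Its 12 h change without amino acids was the largest decrease against the control among the 42 genes (log2 fold change -2.42, SE 0.20, adjusted p = 9.73e-12), and the decrease without glucose was also called (-0.88, adjusted p = 0.000111).

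Slc16a1, the monocarboxylate carrier MCT1, which moves lactate and pyruvate across the plasma membrane, climbed through the glucose starvation. It had 82.4 and 85.4 CPM at 0 h, 147 and 141 CPM at 3 h, 158 and 165 CPM at 6 h and 184 and 187 CPM at 12 h without glucose. Slc16a1 had 124 and 127 CPM at 3 h, 106 and 111 CPM at 6 h and 86.3 and 93.5 CPM at 12 h without amino acids, so it was highest at 3 h and back near the control by 12 h. The change at 12 h without glucose was 1.14 (SE 0.057, adjusted p = 1.85e-16). The 12 h value without amino acids lay 0.10 above the control and did not pass the test (adjusted p = 0.122). Slc16a3, the lactate exporter MCT4, was at 1.09 to 4.59 CPM. It had 2.99 and 3.02 CPM at 0 h, 1.53 and 1.24 CPM at 3 h, 2.99 and 1.61 CPM at 6 h and 3.53 and 4.59 CPM at 12 h without glucose. Slc16a3 had 1.21 and 1.60 CPM at 3 h, 1.46 and 1.09 CPM at 6 h and 2.05 and 2.02 CPM at 12 h without amino acids. It fell at 3 h without glucose (log2 fold change -1.11, SE 0.28, adjusted p = 0.00154), and its rise from that low level by 12 h was called (log2 fold change 1.54, SE 0.27, adjusted p = 1.75e-05). At 12 h it was not called against the control, either without glucose (log2 fold change 0.43, adjusted p = 0.136) or without amino acids (-0.56, adjusted p = 0.052).

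**Figure D4:**
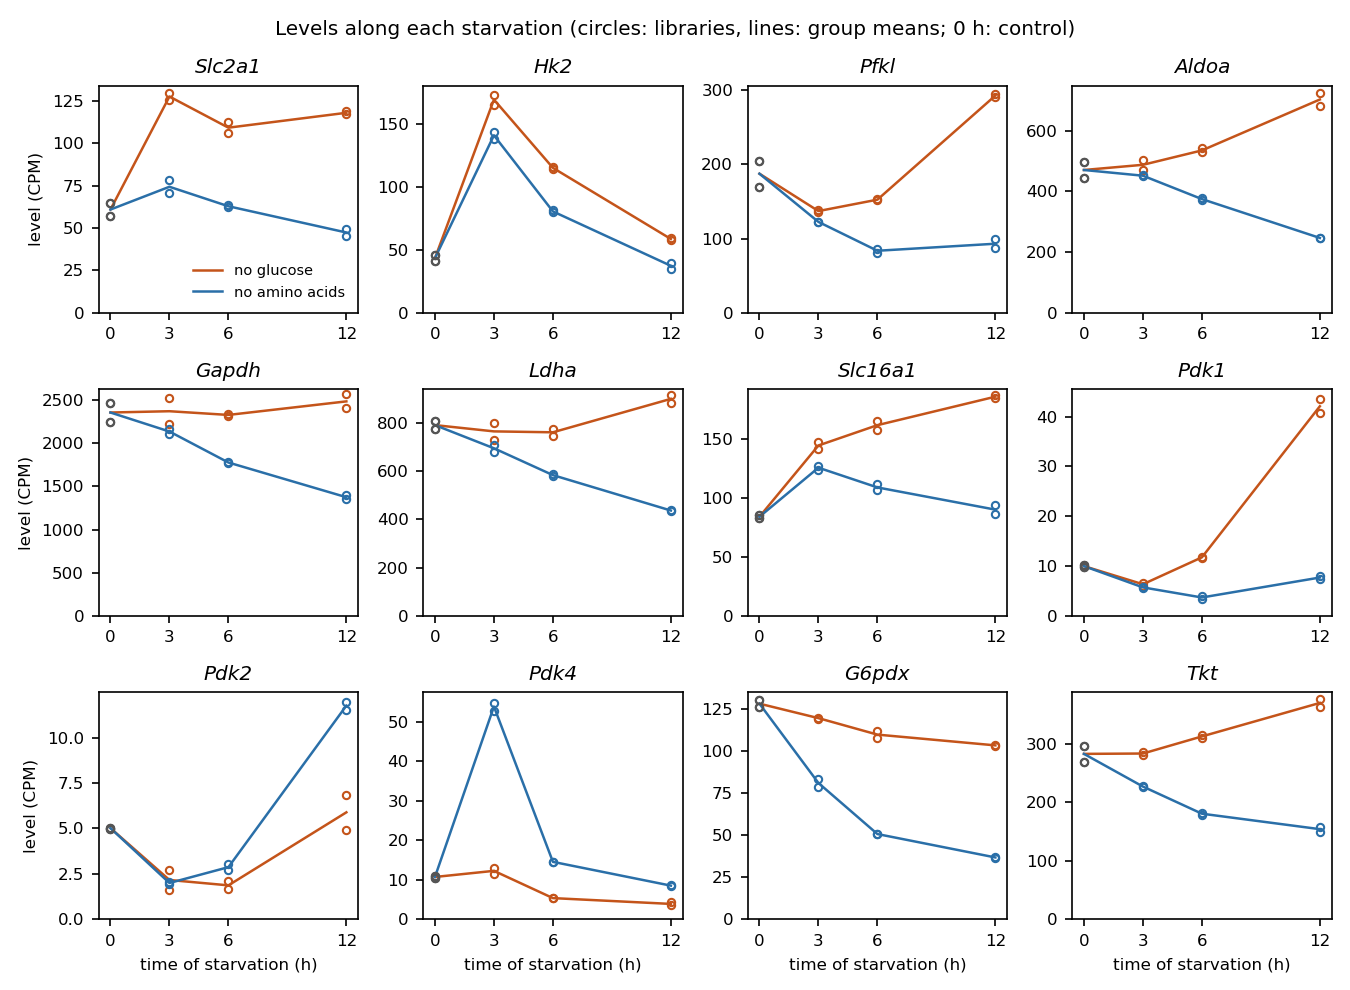
CPM of 12 of the genes against hours of starvation (circles are libraries, lines join group means, 0 h is the control, orange without glucose and blue without amino acids). Pfkl, Aldoa, Slc16a1, Pdk1 and Tkt end above the control without glucose, Pfkl and Pdk1 after a dip at 3 h. The blue lines of Pfkl, Aldoa, Pdk1 and Tkt end below the control, that of Slc16a1 ends slightly above it, and Pdk4 peaks at 3 h without amino acids, at 54.9 and 52.8 CPM.

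Entry of pyruvate into mitochondria showed smaller changes. Mpc1, a subunit of the mitochondrial pyruvate carrier, was higher at 12 h in both starvations, with 30.2 and 30.8 CPM without glucose and 26.4 and 26.9 CPM without amino acids, against 19.3 and 20.6 CPM in the control (log2 fold changes 0.61 and 0.42, adjusted p = 4.98e-07 and 8.91e-05). Earlier it was lower without amino acids, at 13.2 and 13.9 CPM at 6 h (log2 fold change -0.55, SE 0.090, adjusted p = 3.71e-06). Its partner subunit Mpc2 had 13.6 and 14.5 CPM at 6 h without amino acids, against 20.6 and 20.5 CPM in the control, and that was the only called change of Mpc2 against the control (log2 fold change -0.55, adjusted p = 0.000148).

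The subunits of pyruvate dehydrogenase did not move as 1 unit. Pdha1, the alpha subunit of its first enzyme, had 236 and 235 CPM without glucose and 171 and 174 CPM without amino acids at 12 h, against 231 and 231 CPM in the control, and its decrease without amino acids was called (log2 fold change -0.42, SE 0.050, adjusted p = 1.57e-08). Pdhb, the beta subunit of the same enzyme, had 130.5 and 133 CPM and 114 and 121 CPM, against 90.1 and 90.6 CPM, and both increases were called (log2 fold changes 0.54 and 0.38, adjusted p = 2.08e-09 and 8.44e-07). Dlat, the acetyltransferase core, had 99.01 and 98.6 CPM without glucose and 68.6 and 73.97 CPM without amino acids at 12 h, against 82.2 and 88.9 CPM in the control, with called changes of 0.21 (adjusted p = 0.00426) and -0.26 (adjusted p = 0.000415).

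The pyruvate dehydrogenase kinases, which shut the complex off, included the 2 largest increases against the control among the 42 genes, each at another time and without another nutrient. Pdk1 had 9.86 and 10.1 CPM at 0 h, 6.65 and 6.04 CPM at 3 h, 11.8 and 11.7 CPM at 6 h and 43.5 and 40.7 CPM at 12 h without glucose. Pdk1 had 5.66 and 5.78 CPM at 3 h, 3.90 and 3.48 CPM at 6 h and 7.44 and 7.95 CPM at 12 h without amino acids. The 12 h libraries without glucose stood far above the other 12, and its 3 h libraries lay below the control in both starvations. The 12 h increase without glucose was 2.08 (SE 0.10, adjusted p = 1.13e-16). The direct difference between the starvations was 2.45 (SE 0.10, adjusted p = 2.46e-18).

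Pdk4, the isoenzyme known for its rise in fasted muscle and heart, did the reverse in time and nutrient. Without glucose it had 10.99 and 10.4 CPM at 0 h, 11.4 and 13.00 CPM at 3 h, 5.38 and 5.25 CPM at 6 h and 4.23 and 3.45 CPM at 12 h. Pdk4 had 54.9 and 52.8 CPM at 3 h, 14.5 and 14.5 CPM at 6 h and 8.40 and 8.55 CPM at 12 h without amino acids. Only the 3 and 6 h libraries without amino acids and the 3 h libraries without glucose lay above both control libraries. The 3 h increase without amino acids was called (log2 fold change 2.33, SE 0.099, adjusted p = 3.87e-18), while the 3 h value without glucose was not (0.20, adjusted p = 0.139). At 12 h Pdk4 was lower in both starvations, by the test, with log2 fold changes of -1.46 without glucose and -0.33 without amino acids (adjusted p = 8.07e-12 and 0.00661).

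Pdk2, the most widely expressed isoenzyme in adult tissues, dipped and then rose. It had 5.04 and 4.99 CPM at 0 h, 1.63 and 2.69 CPM at 3 h, 1.64 and 2.08 CPM at 6 h and 4.92 and 6.85 CPM at 12 h without glucose. Pdk2 had 2.05 and 1.93 CPM at 3 h, 3.02 and 2.70 CPM at 6 h and 11.98 and 11.6 CPM at 12 h without amino acids. The 12 h libraries without amino acids were the highest of all 14 and the only ones called above the control (log2 fold change 1.23, SE 0.17, adjusted p = 3.86e-07). The decreases at 3 h were called in both starvations (-1.21 and -1.33, adjusted p = 1.93e-05 and 1.81e-06). Pdk3 stayed between 39.0 and 55.8 CPM in all 14 libraries, with called decreases only at 6 and 12 h without amino acids (-0.29 and -0.33, adjusted p = 0.00158 and 0.00052).

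Per length, Pdk3 was the largest part of the kinase family in every group, at 77.6 ± 0.94% in the control. The second place changed hands. Pdk4 held 9.52 ± 0.66% in the control and 37.6 ± 3.2% at 3 h without amino acids. Pdk1 held 5.98 ± 0.053% in the control and 22.98 ± 1.7% at 12 h without glucose, and Pdk2 held 6.93 ± 0.23% in the control and 18.1 ± 1.7% at 12 h without amino acids. At 12 h the share of Pdk1 without amino acids was 5.11 ± 0.12%, and the share of Pdk2 without glucose was 7.40 ± 1.5%.

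The oxidative pentose phosphate genes fell under amino acid starvation at every time, and all 3 were higher without glucose than without amino acids at every time. Such calls at every time were made for 15.6% and 15.8% of all genes. G6pdx, glucose 6-phosphate dehydrogenase, which commits sugar to the branch and makes NADPH, had 130.1 and 126 CPM at 0 h, 119 and 119.8 CPM at 3 h, 107 and 112 CPM at 6 h and 103 and 103 CPM at 12 h without glucose. G6pdx had 83.1 and 78.7 CPM at 3 h, 50.7 and 50.4 CPM at 6 h and 36.7 and 36.6 CPM at 12 h without amino acids. The 6 libraries without amino acids lay below all others. The 12 h change was -1.81 (SE 0.058, adjusted p = 2.65e-21), against -0.31 without glucose (adjusted p = 1.71e-05). Pgd, 6-phosphogluconate dehydrogenase, the second NADPH-forming enzyme, fell to 110.0 and 113 CPM without glucose and 56.6 and 52.3 CPM without amino acids at 12 h, against 158 and 141 CPM in the control (log2 fold changes -0.43 and -1.46, adjusted p = 9.13e-07 and 5.01e-18). Pgls, the lactonase between them, had 40.8 and 43.4 CPM and 21.8 and 22.3 CPM, against 40.1 and 31.2 CPM, and only the decrease without amino acids was called (log2 fold change -0.69, SE 0.12, adjusted p = 1.93e-05).

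The non-oxidative arm split into 2 pairs at 12 h without amino acids, while without glucose Tkt and Taldo1 moved apart. Tkt, transketolase, had 297 and 269 CPM at 0 h, 281 and 286 CPM at 3 h, 310.2 and 316 CPM at 6 h and 364 and 377 CPM at 12 h without glucose. Tkt had 228 and 226 CPM at 3 h, 182 and 179 CPM at 6 h and 158 and 149.6 CPM at 12 h without amino acids. At 12 h the libraries lay above the control without glucose (log2 fold change 0.39, SE 0.055, adjusted p = 5.04e-07) and below it without amino acids (log2 fold change -0.88, SE 0.055, adjusted p = 2.24e-14). Taldo1, transaldolase, was called lower at 12 h in both, with 114 and 117 CPM without glucose and 72.8 and 74.3 CPM without amino acids, against 138 and 132 CPM in the control (log2 fold changes -0.23 and -0.88, adjusted p = 0.00117 and 7.03e-14).

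The other pair, which interconverts the pentose phosphates, was called higher at 12 h in both starvations. Rpe, ribulose phosphate epimerase, had 62.8 and 62.9 CPM without glucose and 55.4 and 63.5 CPM without amino acids, against 33.5 and 38.7 CPM in the control (log2 fold changes 0.80 and 0.72, adjusted p = 1.06e-09 and 5.08e-09). Rpia, ribose phosphate isomerase, had 25.4 and 25.6 CPM and 20.01 and 18.8 CPM, against 17.2 and 16.4 CPM (log2 fold changes 0.60 and 0.21, adjusted p = 2.05e-06 and 0.0493).

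At 12 h, 11 of the 42 genes were called higher without glucose and lower without amino acids than the shared control: Slc2a1, Hk2, Pfkl, Pfkp, Aldoa, Pgk1, Eno1, Ldha, Dlat, Pdk1 and Tkt. That is 26.2% of the 42 genes, where 6.11% of all genes tested showed the same pair of calls. Of the 42 genes, 0 showed the opposite pair, which 5.03% of all genes did. Another 5 genes, Eno2, Mpc1, Pdhb, Rpia and Rpe, were called higher in both starvations (11.9%, against 17.5% of all genes), and 13 were called lower in both (31.0%, against 16.7%). With library totals in place of TMM the 11 became 6, without Dlat, Eno1, Hk2, Ldha and Pfkp. With the GC and length correction the set numbered 12, of which 10 were among these 11, without Ldha. With summed transcript entries it numbered 10, without Pfkp. All 11 stayed with RLE factors, DESeq2, the other filters and the replicate block. In some fits with a single library left out, Dlat, Hk2, Eno1 or Pfkp left the set.

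**Figure D5:**
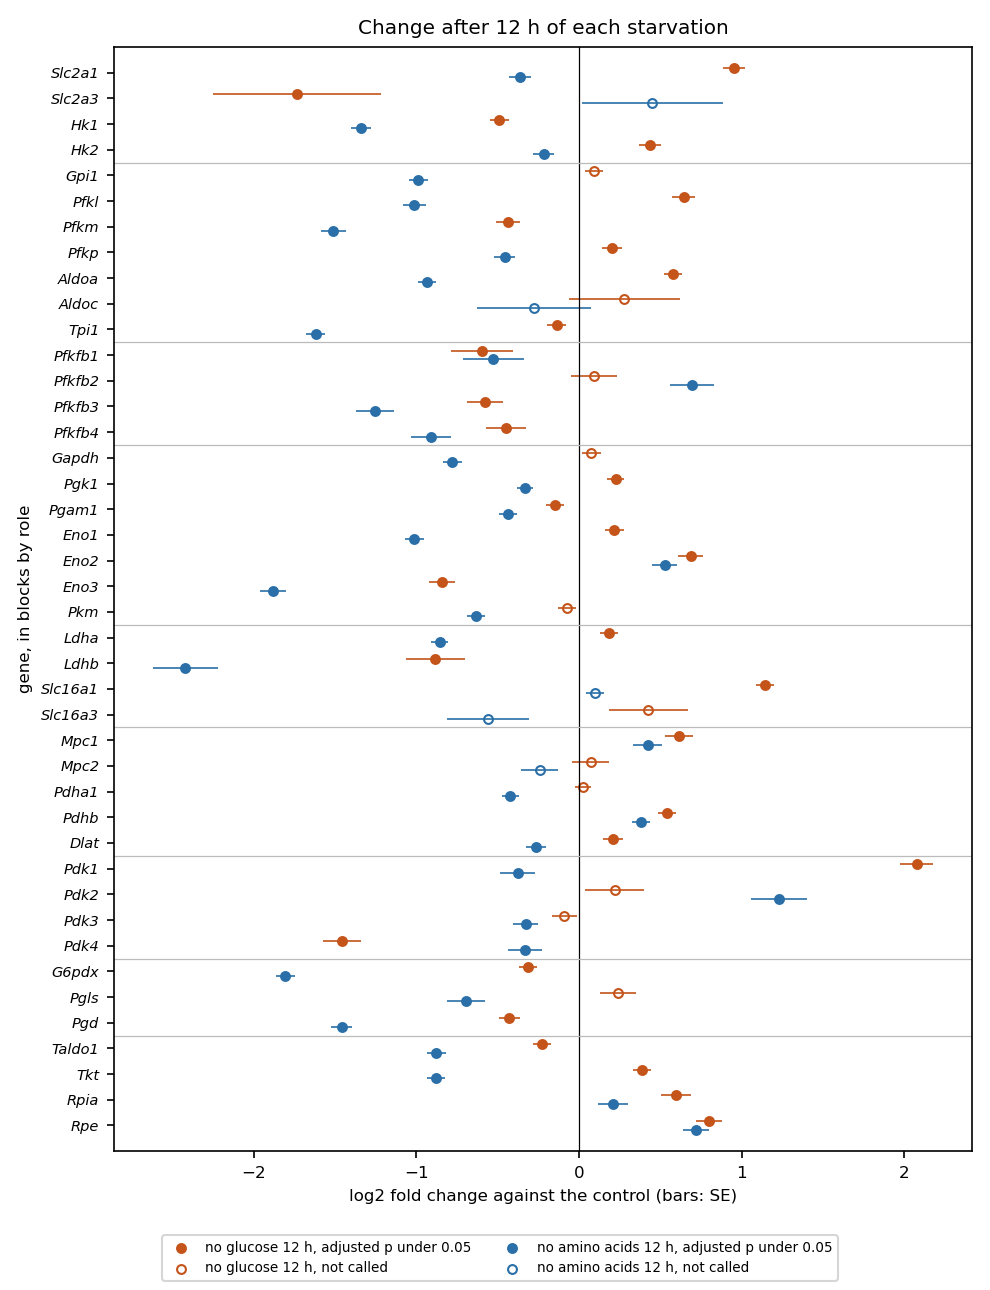
Log2 fold change against the control after 12 h (points, bars are SE) for each of the 42 genes in blocks by role, without glucose in orange and without amino acids in blue, filled where the adjusted p was under 0.05. Orange points lie right of blue ones for all but 5 genes, and Pdk1 without glucose (2.08) and Ldhb without amino acids (-2.42) are the extremes.

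The start-site windows shown first are those of genes whose 12 h calls were opposite in the starvations. At 3 h these genes did not share a direction, since Slc2a1 rose and Pfkl and Pdk1 fell in both starvations. Windows run from 250 bases before to 50 after the start of transcription (RefSeq, GRCm38.p6), and 41 of the 42 genes had one. Capitals mark ACGTG or GCGTG, the core letters of the hypoxia response element that HIF factors bind, read on either strand, so CACGT and CACGC are marked too. Pdk1, Pfkl, Aldoa and Slc2a1 had the widest differences between the starvations at 12 h among the 11 genes. The Pdk1 window is chr2:71872974-71873273 on the plus strand, Pfkl chr10:78009758-78010057 on the minus strand, Aldoa chr7:126799129-126799428 on the minus strand and Slc2a1 chr4:119108495-119108794 on the plus strand.
Pdk1: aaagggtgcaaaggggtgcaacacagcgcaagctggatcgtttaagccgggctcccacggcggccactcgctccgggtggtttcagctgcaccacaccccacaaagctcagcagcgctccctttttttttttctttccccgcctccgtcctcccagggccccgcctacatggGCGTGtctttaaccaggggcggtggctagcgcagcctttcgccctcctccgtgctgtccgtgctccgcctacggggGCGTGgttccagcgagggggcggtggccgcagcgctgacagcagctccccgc
Pfkl: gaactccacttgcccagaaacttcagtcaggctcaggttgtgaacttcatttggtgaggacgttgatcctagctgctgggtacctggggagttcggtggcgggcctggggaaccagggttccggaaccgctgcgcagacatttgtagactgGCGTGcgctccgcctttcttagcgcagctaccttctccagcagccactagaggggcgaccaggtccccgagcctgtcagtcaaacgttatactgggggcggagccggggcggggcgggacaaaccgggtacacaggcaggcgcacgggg
Aldoa: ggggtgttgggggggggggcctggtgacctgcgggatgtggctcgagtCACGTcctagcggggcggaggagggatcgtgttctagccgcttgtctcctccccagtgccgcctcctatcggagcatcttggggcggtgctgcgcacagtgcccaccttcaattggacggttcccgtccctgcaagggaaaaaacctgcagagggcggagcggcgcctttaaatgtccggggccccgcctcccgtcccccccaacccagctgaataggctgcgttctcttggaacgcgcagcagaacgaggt
Slc2a1: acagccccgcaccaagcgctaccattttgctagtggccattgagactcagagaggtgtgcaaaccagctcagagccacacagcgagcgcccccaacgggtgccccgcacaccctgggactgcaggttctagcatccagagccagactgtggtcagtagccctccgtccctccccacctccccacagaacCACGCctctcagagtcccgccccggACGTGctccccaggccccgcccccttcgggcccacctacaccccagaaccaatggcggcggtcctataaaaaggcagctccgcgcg

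The Pdk1 window held cores that begin 78 and 2 bases before the start site, the Slc2a1 window 61 and 36 bases before it, and Pfkl and Aldoa 1 each, 99 and 202 bases before it. The other 2 kinases with a time and nutrient of their own are set beside Pdk1, with Pdk2 at chr11:95041322-95041621 and Pdk4 at chr6:5496229-5496528, both on the minus strand.
Pdk2: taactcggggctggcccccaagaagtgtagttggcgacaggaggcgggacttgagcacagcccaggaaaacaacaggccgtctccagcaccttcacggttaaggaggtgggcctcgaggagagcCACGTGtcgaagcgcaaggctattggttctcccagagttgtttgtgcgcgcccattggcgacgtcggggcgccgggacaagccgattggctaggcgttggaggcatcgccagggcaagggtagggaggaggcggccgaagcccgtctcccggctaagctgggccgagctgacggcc
Pdk4: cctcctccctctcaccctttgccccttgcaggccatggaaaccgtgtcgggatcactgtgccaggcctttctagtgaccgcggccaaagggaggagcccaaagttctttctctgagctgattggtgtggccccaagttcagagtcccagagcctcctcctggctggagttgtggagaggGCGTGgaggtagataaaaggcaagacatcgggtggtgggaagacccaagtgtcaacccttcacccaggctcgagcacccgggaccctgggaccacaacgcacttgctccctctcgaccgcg

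These windows also held the core, at 126 and 125 bases before the start site in Pdk2, where an ACGTG and its complement overlap, and at 71 bases in Pdk4. Over the family of genes, 34 of 41 windows (82.9%) held ACGTG or GCGTG, against 43.8% of 32851 windows of all genes. Each of the 41 genes has 1 window here, while the 32851 include every listed window of a gene, expressed or not. The printed windows were 60.7 to 66.0% G or C, and both cores contain CG. The part of base content in these shares was not tested. The core was in 10 of the 11 windows of the genes called in opposite directions (90.9%) and in 24 of the other 30. The GC box GGGCGG was in 29 of 41 windows (70.7%, against 35.7% of all), the CCAAT box in 20 (48.8%, against 37.4%) and the E-box CACGTG, which contains ACGTG, in 5 (12.2%, against 7.2%). The letters TGATGNAA, the core of the ATF4 response element, were in 0 of the 41 windows and in 4.0% of all. All motifs were read on both strands, and a match is a description of the letters only.

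Across all 3 times, 19 of the 42 genes were called higher without glucose than without amino acids (45.2%, against 15.8% of all genes): Slc2a1, Hk1, Hk2, Tpi1, Pfkfb4, Gapdh, Eno1, Eno3, Ldha, Slc16a1, Mpc1, Mpc2, Dlat, G6pdx, Pgls, Pgd, Taldo1, Tkt and Rpia. Pfkfb2 and Pdk4 were called lower at all 3 times (4.76%, against 15.7%). At 3 h alone, 22 genes were higher and 4 lower (background 54.4% called, 27.7% as higher and 26.7% as lower). At 6 h, 32 were higher and 5 lower (background 63.8%, 32.3% and 31.5%). The 3 h count rested on single libraries: without the second amino acid library or the second glucose library of 3 h, 14 genes were higher. The set of 19 became 12 without that amino acid library, 13 without that glucose library and 13 without the first amino acid library of 3 h. At 3 h the called differences of Gapdh and Eno1, and at 6 h those of Pgam1 and Pkm, changed sign with the GC and length correction.

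Against the control, 15 genes were called lower at all 3 times without amino acids (35.7%, against 15.6% of all genes): Hk1, Pfkl, Pfkm, Tpi1, Pfkfb1, Gapdh, Eno3, Ldha, Ldhb, Pdk1, G6pdx, Pgls, Pgd, Taldo1 and Tkt. With library totals the set became 21, of which 14 were among these 15. With the GC and length correction it became 12, without Gapdh, Ldha and Taldo1. Gapdh also left it with RLE factors, DESeq2 and the stricter filter. The set shrank when either amino acid library of 3 h was left out. Without glucose, Slc2a1, Hk2, Pfkp, Eno2, Slc16a1 and Rpia were called higher at all 3 times (14.3%, against 10.2% of all genes), and Slc2a3, Pfkm and Tpi1 lower (7.14%, against 9.42%). The group means of 16 genes were lower at each step from 0 to 3, 6 and 12 h without amino acids (38.1%, against 10.7% of all genes), and those of 6 genes were lower at each step without glucose (14.3%, against 8.71%). Means were higher at each step for 6 genes without glucose (Aldoa, Eno1, Pgls, Rpe, Slc16a1 and Tkt; 14.3%, against 10.3%) and for Pdhb alone without amino acids (2.38%, against 9.3%).

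The change between 3 and 12 h needs no control library. Within each starvation, though, it cannot be told apart from a change with hours in culture, because no unstarved cells were sampled then. Without glucose, 14 genes were higher and 12 lower at 12 h than at 3 h (background 57.3% called, 31.8% as higher and 25.5% as lower). Without amino acids 9 were higher and 30 lower (background 68.4%, 35.5% and 32.9%). The medians over the 42 genes were 0.04 without glucose and -0.61 without amino acids, against 0.07 and 0.04 over all genes. The test of the difference between these changes called 31 genes, 29 of them with a higher 12 h to 3 h ratio without glucose and 2, Mpc1 and Pdk2, with a lower one, where 47.4% of all genes were called, 25.7% as higher and 21.7% as lower. With library totals the split was 23 and 8. Pfkl, Aldoa, Ldha, Slc16a1 and Tkt were called higher at 12 h than at 3 h without glucose and lower without amino acids (11.9%, against 4.95% of all genes). Pdk1 had the largest difference between the changes (log2 fold change 2.30, SE 0.16, adjusted p = 7.63e-13).

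Genes that work beside the 42 were counted from further lists, to be read against all genes tested. At 12 h these were 30.4% higher and 28.0% lower without glucose, and 34.9% higher and 32.0% lower without amino acids. Of 20 citric acid cycle genes, 6 were higher and 3 lower after 12 h without glucose, and 1 was higher and 16 lower after 12 h without amino acids. The direct comparison called 16 higher and 3 lower without glucose than without amino acids, with a median of 0.49, where 31.6% of all genes were higher and 32.5% lower. Idh2, a mitochondrial isocitrate dehydrogenase that makes NADPH, had 170.2 and 179.8 CPM without glucose and 41.2 and 40.95 CPM without amino acids at 12 h, against 172 and 159.6 CPM in the control, and its decrease without amino acids was called (log2 fold change -2.01, SE 0.060, adjusted p = 4.88e-22). Of 7 gluconeogenesis genes found, 4 were tested, and after 12 h 2 were higher and 1 lower in each starvation. Pck2, the mitochondrial phosphoenolpyruvate carboxykinase, rose to 493 and 516 CPM at 12 h without glucose and 251 and 234 CPM without amino acids, against 75.4 and 65.2 CPM in the control (log2 fold change 2.84, SE 0.064, adjusted p = 1.67e-24 without glucose). Pck2 overlaps a gene on the opposite strand, as does Txnip.

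Regulators of these genes moved too. Txnip, a restrainer of glucose uptake whose gene is driven by glucose metabolites, had 0.542 and 0.173, 0.518 and 0.693 and 1.56 and 1.86 CPM after 3, 6 and 12 h without glucose and 15.5 and 13.1, 30.7 and 34.9 and 47.05 and 50.3 CPM after 3, 6 and 12 h without amino acids, against 9.59 and 8.28 CPM in the control. It fell in the one starvation and rose in the other, with 12 h log2 fold changes of -2.40 (SE 0.16, adjusted p = 2.86e-13) and 2.44 (SE 0.12, adjusted p = 1.08e-16). Myc, an activator of many glycolytic genes, had 377 and 388 CPM at 3 h without glucose and 726 and 705 CPM at 3 h without amino acids, against 112 and 98.7 CPM in the control (log2 fold change 2.76, SE 0.060, adjusted p = 4.09e-25 without amino acids). Atf4, the factor of the amino acid response, had 815 and 860.1 CPM and 1134 and 1174 CPM, against 304 and 314 CPM (log2 fold change 1.90, SE 0.054, adjusted p = 2.62e-22 without amino acids). Of the 15 tested genes of this list, 7 were higher and 4 lower after 12 h without glucose (all genes 30.4% and 28.0%). After 12 h without amino acids, 10 were higher and 4 lower (all genes 34.9% and 32.0%).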

How the data were processed

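RNA from 14 libraries of mouse embryonic fibroblasts was measured by bulk sequencing. Read counts per transcript were deposited by the authors as 1 table of 67457 entries, whole numbers with no normalization, with a transcript length in bases beside them per the file headers. STAR, bedtools and the mouse build GRCm39 are named in the submitters' processing notes. Settings, annotation and strandedness are not given in the sources used here. Entries with no gene name (58) held 0.0% of the reads and were left out. Each gene was represented by the transcript with the most reads, because entries of a gene can count the same reads; 23 of the 42 genes had several. Low counts were often even (73.3% of counts from 1 to 10), so they may not be single reads.

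Libraries were scaled by TMM and fitted together as 7 groups with edgeR 4.0.16 (R 4.3.3; filterByExpr, glmQLFit with robust = TRUE, glmQLFTest), with Benjamini-Hochberg adjustment over the 17696 genes that passed the filter. The common biological coefficient of variation was 5.78%, with 7 residual and a median of 20.9 prior degrees of freedom, and 2 libraries a group limit the precision. Depth was 35270751 to 55349673 reads. CPM and TPM were computed from the deposited counts. Alternatives were RLE factors, library totals, DESeq2 1.42.0, no filter, a filter of at least 1 CPM in at least 4 libraries, only the groups compared, a replicate block, summed transcript entries, each library left out, and, chosen after seeing the data, a correction for GC content and length. The genes and all lists were chosen with earlier results of these data known. All 42 genes are described. Of each further pathway list, up to 3 genes with the smallest p against the control could be named.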

Additional observations from a re-analysis of the deposited data

Results flagged for a closer look

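The change between 3 and 12 h differed between glucose and amino acid starvation, by the edgeR test of the difference itself, for 31 of the 42 genes. The same test called 47.4% of all genes, 25.7% as higher and 21.7% as lower. Of the 42 genes, 29 were higher and 2 lower, and with library totals 23 were higher and 8 lower. The values here are the log2 change without glucose minus the log2 change without amino acids, so a positive value means a higher 12 h to 3 h ratio without glucose. In uptake and trapping the difference was 0.54 for Slc2a1, 0.63 for Hk1 and 0.39 for Hk2. From hexose to triose phosphate it was 0.97 for Gpi1, 1.49 for Pfkl, 1.16 for Pfkm, 0.98 for Pfkp, 1.40 for Aldoa and 1.25 for Tpi1, and of the fructose 2,6-bisphosphate enzymes it was called for Pfkfb3 (0.78).

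From triose phosphate to pyruvate the difference was 0.70 for Gapdh, 0.63 for Pgk1, 0.27 for Pgam1, 1.09 for Eno1, 0.81 for Eno3 and 0.55 for Pkm. All 4 genes of lactate formation and transport were called, at 0.90 for Ldha, 1.25 for Ldhb, 0.84 for Slc16a1 and 1.01 for Slc16a3. For mitochondrial pyruvate it was -0.39 for Mpc1, 0.60 for Pdha1 and 0.28 for Dlat. Among the kinases it was 2.30 for Pdk1, -1.13 for Pdk2 and 1.01 for Pdk4. Pdk4 fell by 1.65 without glucose and by 2.67 without amino acids between 3 and 12 h. In the pentose phosphate pathway it was 0.93 for G6pdx, 0.52 for Pgls, 0.76 for Pgd, 0.35 for Taldo1 and 0.94 for Tkt. Groups of 2 libraries are too small for a search for outlying samples.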

How the results depend on the processing

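Of the 504 log2 fold changes (42 genes in 12 comparisons), 491 kept their direction and side of the threshold with RLE factors, 491 with DESeq2, 486 with no filter, 492 with summed transcript entries, 420 with library totals and 424 with the GC and length correction. The stricter filter kept 476 of 492, and fits of only the groups compared 483 of 503. Same-numbered libraries did not deviate together (correlations of deviations from the group means from -0.035 to 0.054), and a replicate block turned 0 directions, took away 0 calls and added 4. Counts of called genes moved by over 1.5 times in these cases, and the cause was not tested. With library totals, 4 genes were higher at 3 h without amino acids, 6 higher and 20 lower at 3 h and 19 lower at 6 h without glucose, and the difference of changes had 8 lower. DESeq2 and the stricter filter each gave 8 higher at 6 h without amino acids, and no filter gave 2 lower at 3 h and 3 lower at 6 h in glucose against amino acid starvation. The GC and length correction gave 16 higher at 3 h and 11 higher at 6 h without amino acids, 19 higher at 3 h without glucose, 7 lower at 3 h in glucose against amino acid starvation, and 4 lower in the difference of changes. In glucose against amino acid starvation, leaving out 1 library gave 14 to 26 higher at 3 h (14 without the second glucose or second amino acid library of 3 h) and 2 to 4 lower (2 without the first amino acid library of 3 h). It gave 1 to 5 lower at 6 h (1 without the first 6 h amino acid library, 2 without the first 6 h glucose library, and 3 without the second 6 h or either 12 h amino acid library). It also gave 9 to 14 lower at 12 h without glucose (9 without its first library), and 0 to 3 lower in the difference of changes (0 without the second 3 h glucose library, 1 without the second 3 h amino acid library). Library totals turned the sign of 12 log2 fold changes. At 3 h without amino acids these were Pgam1 (-0.16) and Pdha1 (-0.0056). At 3 h without glucose they were Gapdh (-0.16), Pgk1 (-0.0407), Pgam1 (-0.13), Pdha1 (-0.15) and Tkt (-0.17). In glucose against amino acid starvation at 12 h they were Mpc1 (-0.0468) and Pdhb (-0.0762). The rest were from 3 to 12 h without amino acids Dlat (0.0474) and Pdk3 (0.0555), and in the difference of changes Pdhb (-0.19). The GC and length correction turned 22. At 3 h without amino acids these were Gpi1 (0.13), Aldoa (0.21), Gapdh (0.12), Eno1 (0.23) and Pkm (0.24). At 6 h they were Aldoa (0.039), Pgam1 (0.0719), Eno1 (0.0204), Pkm (0.12) and Rpe (-0.15), and at 12 h Slc16a1 (-0.16). It also turned Pkm at 3 h (0.10) and Pdha1 at 12 h (-0.0911) without glucose. In glucose against amino acid starvation it turned Gapdh (-0.0468), Pgam1 (-0.0807), Eno1 (-0.0116) and Pkm (-0.14) at 3 h and Pgam1 (-0.0264) and Pkm (-0.12) at 6 h. From 3 to 12 h without glucose it turned Gpi1 (-0.12), Pgk1 (-0.0773) and Pdha1 (-0.12). Depth limits Slc2a3, Aldoc and Slc16a3 most, with at most 190 reads in a library.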

Other observations

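The counts that follow stand beside 30.4% of all genes higher and 28.0% lower after 12 h without glucose, and 34.9% higher and 32.0% lower after 12 h without amino acids. Of 12 tested genes of uptake and glycolysis beyond the 42, 6 were higher and 2 lower after 12 h without glucose, and 5 higher and 1 lower after 12 h without amino acids. Adpgk, an ADP-dependent glucokinase, had 111 and 109.6 CPM without glucose and 78.9 and 81.5 CPM without amino acids, against 44.2 and 44.5 CPM in the control (log2 fold change 1.32, SE 0.058, adjusted p = 1.3e-17 without glucose). Of 2 further glucose carriers, Slc2a6 was called higher at 12 h without glucose (log2 fold change 2.06) and Slc2a8 at 12 h without amino acids (log2 fold change 1.41). Adpgk and Pdpr each overlap a gene on the opposite strand. Of 5 further pyruvate dehydrogenase genes, 4 were higher and 0 lower without glucose and 3 higher and 0 lower without amino acids at 12 h, among them Pdpr, the regulatory subunit of the phosphatase that reactivates the complex (log2 fold change 1.08, SE 0.097, adjusted p = 7.58e-11 without amino acids). Of 5 tested further pentose phosphate genes, 2 were higher and 1 lower without glucose and 2 higher and 2 lower without amino acids, and H6pd, the hexose 6-phosphate dehydrogenase of the endoplasmic reticulum, fell at 6 h without amino acids (log2 fold change -2.04).

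Of 8 NADH shuttle genes, 4 were higher and 4 lower after 12 h without glucose, and 1 was higher and 6 lower after 12 h without amino acids. Got1, the cytosolic aspartate aminotransferase, had 163 and 171 CPM at 6 h without glucose and 227 and 238 CPM at 6 h without amino acids, against 69.6 and 69.6 CPM in the control (log2 fold change 1.74, SE 0.059, adjusted p = 2.06e-20 without amino acids). Of 17 tested glycogen genes, 7 were higher and 5 lower without glucose and 8 higher and 8 lower without amino acids at 12 h. Stbd1, which anchors glycogen to membranes, had 111 and 114 CPM without glucose and 57.7 and 58.2 CPM without amino acids, against 13.4 and 12.1 CPM in the control (log2 fold change 3.14, SE 0.074, adjusted p = 5.73e-24 without glucose).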
